A study of Mus musculus with 16 samples.

Results

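The 4 Hox clusters encode the homeodomain transcription factors that give cells their position along the body axis, and their genes were followed here in mouse embryonic stem cells (ESCs) before and after the cells were left to differentiate. Members were all genes whose symbol is Hox, a cluster letter (a to d) and a paralogue number. Only probe sets with a single gene symbol were used, and the probe set with the highest mean signal stood for a gene; each member had 1 such probe set. This gave 33 members among 30102 genes. Hoxa7, Hoxa9, Hoxb4, Hoxd3 and Hoxd4 lay only on probe sets that carry several symbols, so their levels are not reported.

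Total RNA was hybridized to 16 Affymetrix arrays, 1 for each of 8 lines in 2 conditions. The lacking class holds 3 Mbd3abc-KO lines without a coiled coil in any MBD3: the empty vector line, the coiled-coil-deleted line (MBD3a without that domain) and the doubly deleted line (MBD3a also without its methyl-CpG-binding domain, the MBD). The retaining class holds 5 lines: Mbd3abc-KO cells that stably carry a vector for MBD3a, MBD3b, MBD3c or MBD-deleted MBD3a, and EBRTcH3, the male 129SV wild-type line from which the knockout was made. Each line was kept for 12 days without leukaemia inhibitory factor (LIF), the cytokine that holds mouse ESCs in self-renewal, and was also grown with LIF. MBD3 is a subunit of the NuRD complex, which remodels and deacetylates nucleosomes. EBRTcH3 is thus the only line that never lost its own Mbd3, and 4 of the 5 retaining lines and all lacking lines share the knockout. The labels do not give the promoter of the vectors or say whether a line is 1 clone, and they name no second culture of a line, so each p-value sets a difference against the spread among lines, not among cultures. Mbd3 was lowest in the empty vector line, at 7.45 log2 without LIF and 7.00 with LIF, against 8.45 to 9.59 in the other 7 lines over both conditions. The array titles fall into 2 runs of numbers, 1 to 10 (EBRTcH3, MBD3a, MBD3b, MBD3c and the empty vector line) and 15 to 20 (the MBD-deleted, coiled-coil-deleted and doubly deleted lines). The labels do not say what the runs stand for, so values within each run are given where they change a call. Run 2 has only 1 retaining line and run 1 only 1 lacking line. Fits within run 2 and, within run 1, class differences and lacking responses rest on too few lines for a call. For these, sizes alone are given.

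Hox genes lie in the order in which they act: genes of low paralogue number, at the 3' end of a cluster, are used first and nearest the head, and those of high number are used later and further towards the tail. In ESCs the clusters are held silent by Polycomb complexes, and retinoic acid, Wnt and Fgf signals and the Cdx factors open them in the embryo from the 3' end onward. Trithorax-type methyltransferases keep them active once open, and the TALE homeodomain proteins (Pbx, Meis, Pknox) bind DNA together with Hox proteins. In bulk RNA, fewer cells that express a gene and less RNA per cell cannot be told apart.

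The HoxD cluster (chromosome 2) held most of the members that rose without LIF in the retaining class, so the upstream sequence of 4 of them and of Hoxd13, for comparison a member with no call, is shown. Each run is the 250 bases before the transcription start, from RefSeq's GRCm38.p6 promoter table, + strand, 5' to 3', with CG pairs in capitals.
Hoxd1, chr2:74762730-74762979: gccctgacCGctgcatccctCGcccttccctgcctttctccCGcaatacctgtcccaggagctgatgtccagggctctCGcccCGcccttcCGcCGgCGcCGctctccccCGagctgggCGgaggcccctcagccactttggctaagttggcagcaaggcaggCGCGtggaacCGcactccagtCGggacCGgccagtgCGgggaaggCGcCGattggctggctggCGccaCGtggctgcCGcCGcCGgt
Hoxd8, chr2:74704365-74704614: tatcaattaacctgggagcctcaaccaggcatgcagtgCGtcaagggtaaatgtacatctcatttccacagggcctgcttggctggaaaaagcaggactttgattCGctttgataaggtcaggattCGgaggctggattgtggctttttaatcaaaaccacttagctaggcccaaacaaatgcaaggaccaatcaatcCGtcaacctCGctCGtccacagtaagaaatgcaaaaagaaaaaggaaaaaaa
Hoxd9, chr2:74697513-74697762: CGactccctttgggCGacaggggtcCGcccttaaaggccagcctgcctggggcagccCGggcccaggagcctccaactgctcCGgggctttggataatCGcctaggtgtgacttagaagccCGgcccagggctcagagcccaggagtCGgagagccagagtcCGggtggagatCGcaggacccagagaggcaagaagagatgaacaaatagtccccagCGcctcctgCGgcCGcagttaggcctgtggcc
Hoxd10, chr2:74691641-74691890: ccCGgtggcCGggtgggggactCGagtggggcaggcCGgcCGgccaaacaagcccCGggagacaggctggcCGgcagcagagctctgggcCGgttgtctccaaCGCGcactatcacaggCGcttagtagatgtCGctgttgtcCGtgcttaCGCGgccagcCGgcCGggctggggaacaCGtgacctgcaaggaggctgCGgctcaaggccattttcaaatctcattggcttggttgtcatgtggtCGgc
Hoxd13, chr2:74667975-74668224: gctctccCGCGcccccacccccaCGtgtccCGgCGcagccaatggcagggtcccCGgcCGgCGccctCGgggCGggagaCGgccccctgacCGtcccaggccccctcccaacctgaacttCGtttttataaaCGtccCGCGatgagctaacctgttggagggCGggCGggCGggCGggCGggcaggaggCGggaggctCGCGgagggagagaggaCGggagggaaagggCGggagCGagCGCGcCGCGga

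Of the 33 members, 17 were found in that table, with 19 promoters. Their median was 13 CG pairs in 250 bases, against 6 over all 32851 promoters, and 9 of the 19 lay above the 75th percentile of all promoters (16 pairs). The HoxD genes shown covered most of that range: Hoxd13 had 31 CG pairs, Hoxd1 24, Hoxd10 20, Hoxd9 13 and Hoxd8 6. The 4 that rose thus ran from few pairs to many, and Hoxd13, with no call, had the most of the genes shown. Letters searched on both strands were TTTATG (the core of the Cdx site), found in 2 of the 19 promoters (10.5%, against 10.8% of all), AGGTCA (the retinoic acid receptor core site), in 3 (15.8%, against 14% of all, among them Hoxd8 and Hoxd10), and TGATNNAT (a Pbx and Hox site), in 4 (21.1%, against 7.68% of all). A match describes letters and shows no binding, and with so few promoters no share is set apart from the rest.

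The median Hox signal lay above the array medians in every line and condition, but low in the full signal range of 0.98 to 14.21 log2. Single members lay far lower, with Hoxc10 at the 6.3 to 12.6 percentile of the array in lacking lines. The mean log2 signal over the 16 arrays ran from 3.26 (Hoxc10) to 6.60 (Hoxb2), with a median of 5.36, where array medians were 4.72 to 4.85. The median was 4.62 for HoxA (chromosome 6), 5.97 for HoxB (chromosome 11), 5.44 for HoxC (chromosome 15) and 5.31 for HoxD. Levels of different probe sets are not on one scale, so these values place each probe set on the array and do not rank the genes. In the map of signal by array, each gene keeps nearly the same level across most arrays. Signal lay above the 40th percentile on all 16 arrays for 24 members, and 29 met the filter for testing (above the 40th percentile on at least 3 arrays). The 4 that did not were Hoxa2, Hoxa3, Hoxb13 and Hoxc10. The RefSeq spans of 7 members overlap that of another Hox gene, and it is not known here which of the overlapping genes a probe detects.

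**Figure D1:**
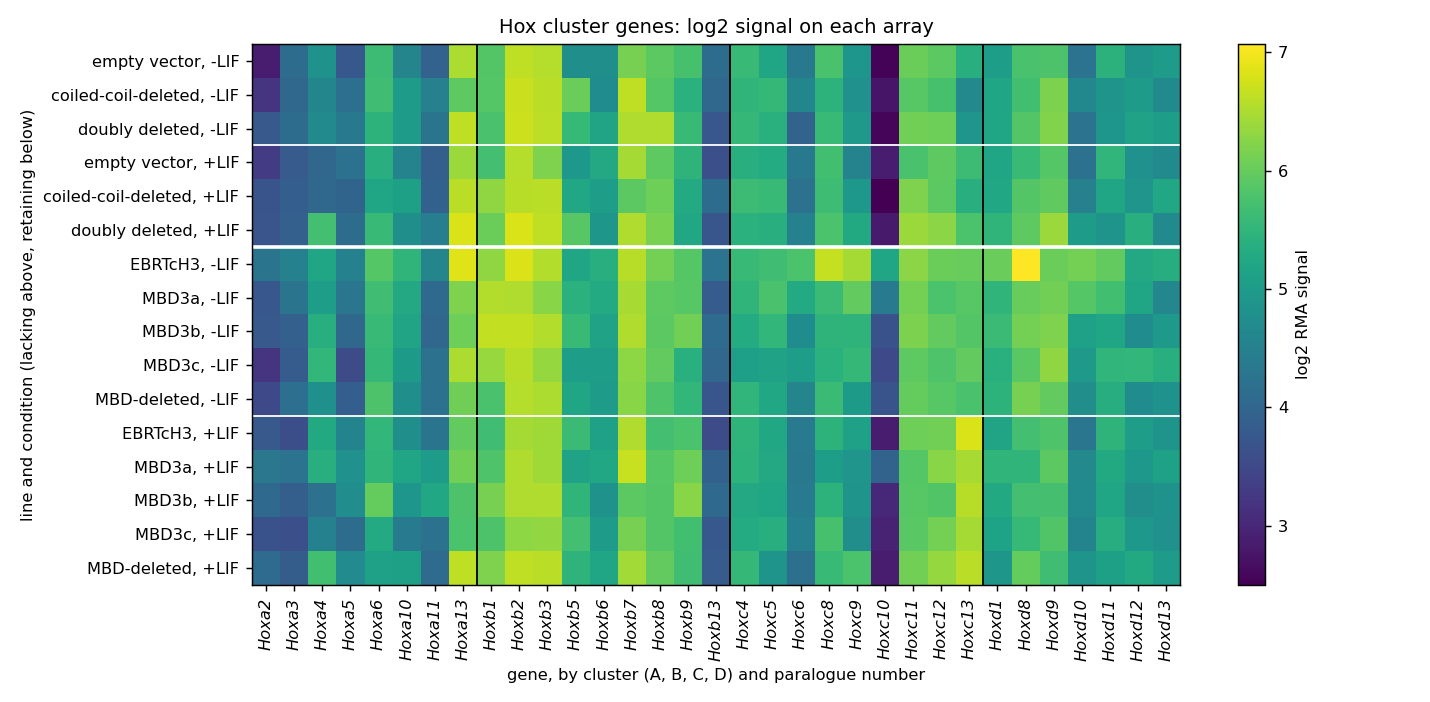
Log2 RMA signal of the 33 Hox genes (columns, by cluster and paralogue number) on each of the 16 arrays (rows, lacking lines above retaining lines, without LIF above with LIF). Most columns hold 1 shade, Hoxc10 is dark in all lacking lines and brightest in EBRTcH3 without LIF (5.21), and EBRTcH3 without LIF has the brightest cell, Hoxd8 at 7.07.

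After LIF withdrawal 8 of 29 tested Hox genes passed in the 5 retaining lines, against 35.8% of all tested genes. In the 3 lacking lines 1 of 29 passed, against 2.93%. The direct test of the difference passed for 0 of 29, against 12.1%. Most of the rises lay in HoxD. In the 5 retaining lines 8 of the 29 tested members passed (limma, adjusted p under 0.05 over all 22872 tested genes): Hoxc6, Hoxd1, Hoxd8, Hoxd9, Hoxd10 and Hoxd11 rose, and Hoxc13 and Hoxa5 fell. Over all tested genes 35.8% passed in this comparison (21.3% higher, 14.5% lower), so the Hox clusters as a whole, at 8 of 29, did not pass more often than other genes. The changes were modest, with the largest being 1.68-fold (Hoxd10), and the median over all 33 members was 0.16 log2, against 0.03 over all genes with no filter. By cluster, 5 of 7 HoxD genes rose and 0 fell. Of HoxC, 1 of 8 tested genes rose and 1 fell, of HoxA 0 of 6 rose and 1 fell, and of HoxB 0 of 8 passed. The HoxD rises depend in part on the scaling: after a further quantile normalization Hoxd8, Hoxd10 and Hoxc6 were the only rises, and Hoxb9 and Hoxc12 joined the falls.

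**Figure D2:**
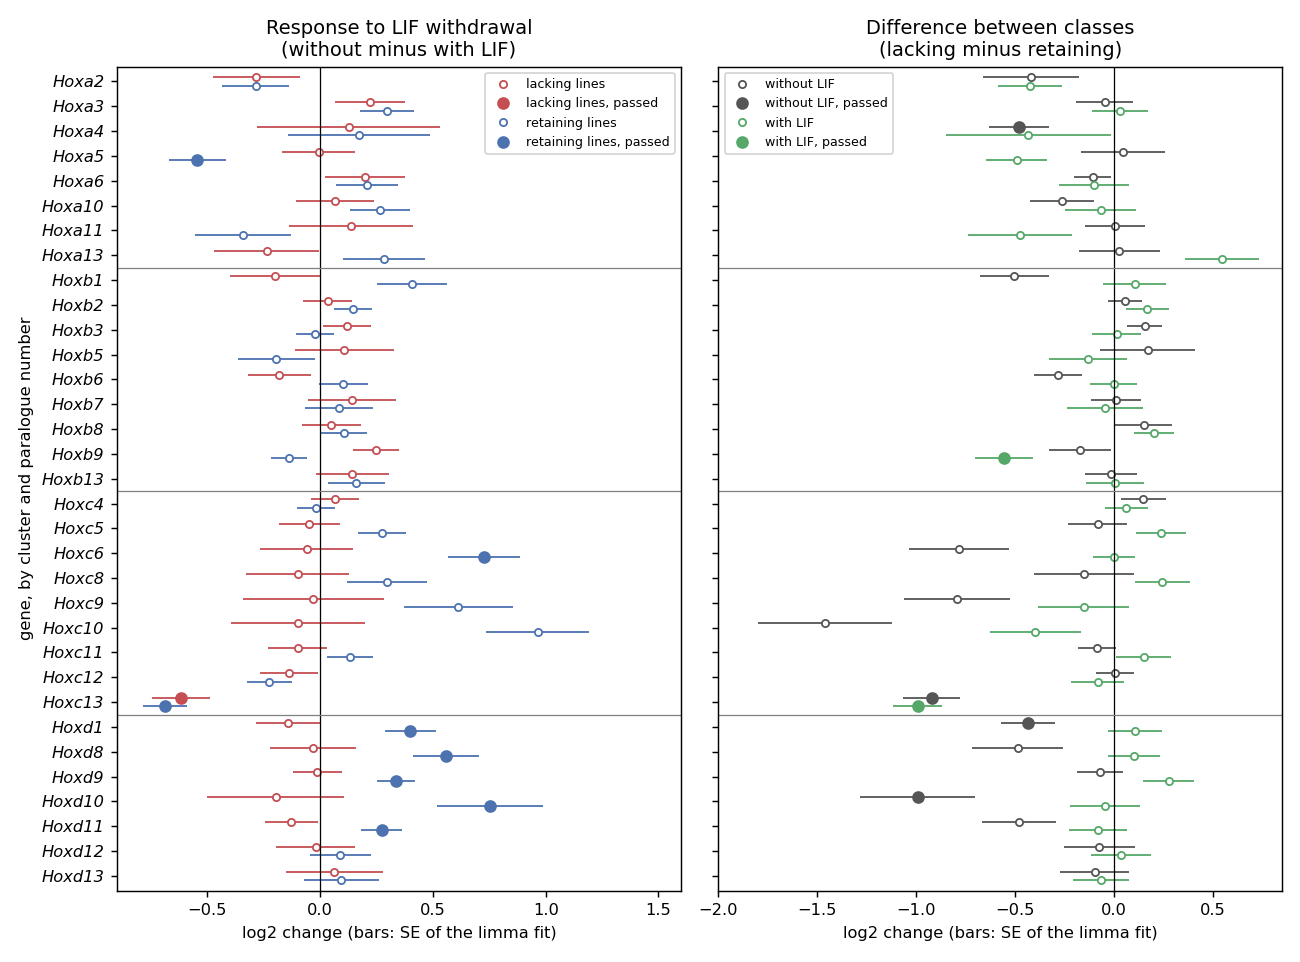
Fitted log2 change of each Hox gene (rows, by cluster) with its SE. Left, the response to LIF withdrawal (without minus with LIF) in lacking and retaining lines; right, lacking minus retaining lines without and with LIF; filled points passed. All 7 HoxD genes lie right of 0 in the retaining lines, Hoxc13 is left of 0 in all 4 series, and Hoxc10, which was below the filter, has the widest change without LIF.

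Hoxd10 and Hoxd8, which pattern the hindlimb motor columns and the trunk, had the widest response in HoxD. Without LIF, Hoxd10 stood at 6.11 log2 in EBRTcH3, 4.76 in MBD-deleted, 5.87 in MBD3a, 5.12 in MBD3b and 4.96 in MBD3c, and with LIF at 4.29, 4.87, 4.65, 4.69 and 4.56 in the same order of lines. EBRTcH3 and MBD3a were high, MBD3b and MBD3c were slightly raised and MBD-deleted was not, so the conditions overlapped. Hoxd10 rose by 0.75 ± 0.24 log2 (SE of the limma fit, n = 5 lines, limma adjusted p = 0.02733). As for all responses here, this SE uses an estimate of the spread that both classes share. The 5 retaining responses of Hoxd10 alone had an SD of 0.76. The call was lost without EBRTcH3 or without MBD3a (0.49 at the lowest, highest adjusted p = 0.09646). It was also lost with the title run as a covariate (0.53, adjusted p = 0.1291). In run 2, where the only retaining line is MBD-deleted, the change was -0.11. Hoxd8 without LIF was 7.07 log2 in EBRTcH3, 6.14 in MBD-deleted, 6.01 in MBD3a, 6.12 in MBD3b and 5.90 in MBD3c, and with LIF 5.70, 5.99, 5.49, 5.70 and 5.57. EBRTcH3 stood well above the other 4 lines without LIF, and each line was higher without LIF than with it, though the conditions overlapped through MBD-deleted with LIF. Hoxd8 rose by 0.56 ± 0.15 (limma adjusted p = 0.01179). It was 0.36 without EBRTcH3 and still passed, and it did not pass with the title run as a covariate (adjusted p = 0.05699). Within run 2 it was 0.15.

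Hoxd9, another gene of the limb and trunk, had a small rise in all 5 lines. Without LIF its log2 signal was 6.04 in EBRTcH3, 5.97 in MBD-deleted, 6.10 in MBD3a, 6.19 in MBD3b and 6.32 in MBD3c, and with LIF it was 5.81, 5.66, 5.91, 5.73 and 5.83. The conditions did not overlap. Groups of lines did not overlap for 24.7% of all tested genes in this comparison and for 3 of the 29 tested members (Hoxc6, Hoxc13 and Hoxd9). Hoxd9 rose by 0.34 ± 0.08 (limma adjusted p = 0.008744) and passed with each line left out, but not after quantile normalization (0.22). Within run 2 it was 0.31.

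Hoxd1, which in mouse shapes the wiring of pain-sensing neurons, and Hoxd11, a gene of forearm and kidney patterning, rose by small amounts. Hoxd1 without LIF was 6.02 log2 in EBRTcH3, 5.45 in MBD-deleted, 5.49 in MBD3a, 5.62 in MBD3b and 5.40 in MBD3c, and with LIF 5.16, 4.91, 5.49, 5.27 and 5.15. It was the same in both conditions in MBD3a and higher without LIF in the other 4. The rise of 0.40 ± 0.11 (limma adjusted p = 0.01599) was 0.28 and did not pass without EBRTcH3 (adjusted p = 0.06207). Nor did it pass within run 1 (0.36, adjusted p = 0.07402), and within run 2 it was 0.54. Hoxd11 without LIF was 5.98 log2 in EBRTcH3, 5.35 in MBD-deleted, 5.69 in MBD3a, 5.21 in MBD3b and 5.51 in MBD3c, and with LIF 5.47, 5.10, 5.28, 5.18 and 5.34. All 5 lines were higher without LIF, by 0.03 to 0.51, and the conditions overlapped. The rise of 0.27 ± 0.09 (limma adjusted p = 0.03664) did not pass without EBRTcH3, MBD3a, MBD3c or MBD-deleted (0.22 at the lowest, highest adjusted p = 0.1348). Within run 1 it did not pass either (adjusted p = 0.06205), and within run 2 it was 0.25. The RefSeq span of Hoxd11 overlaps that of Hoxd10. The digit and genital genes at the 5' end, Hoxd12 and Hoxd13, each stood at 0.09 and did not pass.

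In HoxC, Hoxc6, a gene of thoracic vertebrae and brachial motor neurons, rose in all 5 retaining lines. Without LIF it was 5.77 log2 in EBRTcH3, 4.58 in MBD-deleted, 5.30 in MBD3a, 4.73 in MBD3b and 5.05 in MBD3c, and with LIF 4.40, 4.19, 4.34, 4.40 and 4.47. The lowest value without LIF lay above the highest with LIF. Hoxc6 rose by 0.73 ± 0.16 log2 (1.65-fold, limma adjusted p = 0.004381). The call held with each line left out (0.57 to 0.82) and within run 1 (0.81), and within run 2 the rise was 0.39. Its neighbours towards the 5' end did not pass. Hoxc9, a gene of the thoracic segments, stood at 0.61 ± 0.24 (limma adjusted p = 0.07173), with 4 lines at 0.61 to 1.35 and MBD-deleted at -0.78. Hoxc8, which acts in the same region, stood at 0.30 ± 0.18 (limma adjusted p = 0.2249), and only EBRTcH3 moved by more than 0.54.

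Hoxc10, a gene of lumbar identity, failed the filter because its signal was dim on most arrays, and it is described here after its values were seen. Without LIF it was 5.21 log2 in EBRTcH3, 3.69 in MBD-deleted, 4.38 in MBD3a, 3.65 in MBD3b and 3.50 in MBD3c, and with LIF 2.85, 2.84, 3.95, 3.03 and 2.94. Every retaining line was higher without LIF, EBRTcH3 by 2.36 and the other 4 by 0.43 to 0.85. With LIF the signal in EBRTcH3 lay at the 12.7 percentile of its array and without LIF at the 58.1 percentile. With no filter the change was 0.96 ± 0.23 (limma adjusted p = 0.008646 over all 30102 genes). In the lacking lines Hoxc10 stayed dim, at 2.55 to 2.75 without LIF and 2.50 to 2.84 with LIF.

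Hoxc13, a regulator of hair and nail differentiation at the 5' end of HoxC, fell without LIF in both classes and was lower in the lacking class in both conditions. In lacking lines without LIF it was 4.66 log2 in coiled-coil-deleted, 4.88 in doubly deleted and 5.38 in the empty vector line, and with LIF 5.36, 5.77 and 5.64. In retaining lines without LIF it was 6.01 in EBRTcH3, 5.76 in MBD-deleted, 5.89 in MBD3a, 5.84 in MBD3b and 5.98 in MBD3c, and with LIF 6.82, 6.60, 6.47, 6.58 and 6.45. All 8 lines were lower without LIF, and the highest lacking line lay below the lowest retaining line in each condition. Its change with LIF withdrawal was -0.62 ± 0.13 log2 in lacking lines (limma adjusted p = 0.02828) and -0.69 ± 0.10 in retaining lines (1.61-fold, limma adjusted p = 0.0002742). Both SEs use the spread shared by the classes. The responses alone had an SD of 0.32 in lacking lines and 0.16 in retaining lines, so the lacking call leans on the tighter retaining lines. The retaining call held with each line left out (-0.74 to -0.65) and within run 1 (-0.65). Within run 2 the retaining change was -0.84. The lacking call did not hold without coiled-coil-deleted or doubly deleted (-0.48 at the smallest, highest adjusted p = 0.1893). Within the runs the lacking change was -0.26 in run 1 and -0.80 in run 2. The class differences were wider than the responses: lacking minus retaining was -0.92 ± 0.14 without LIF (1.90-fold, limma adjusted p = 0.001583) and -0.99 ± 0.12 with LIF (1.99-fold, limma adjusted p = 0.0005212). Both held with each line left out, at -1.13 to -0.77 without LIF and -1.08 to -0.88 with LIF. Within run 1 these differences were -0.55 without LIF and -0.94 with LIF, and within run 2 they were -0.99 and -1.03.

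**Figure D3:**
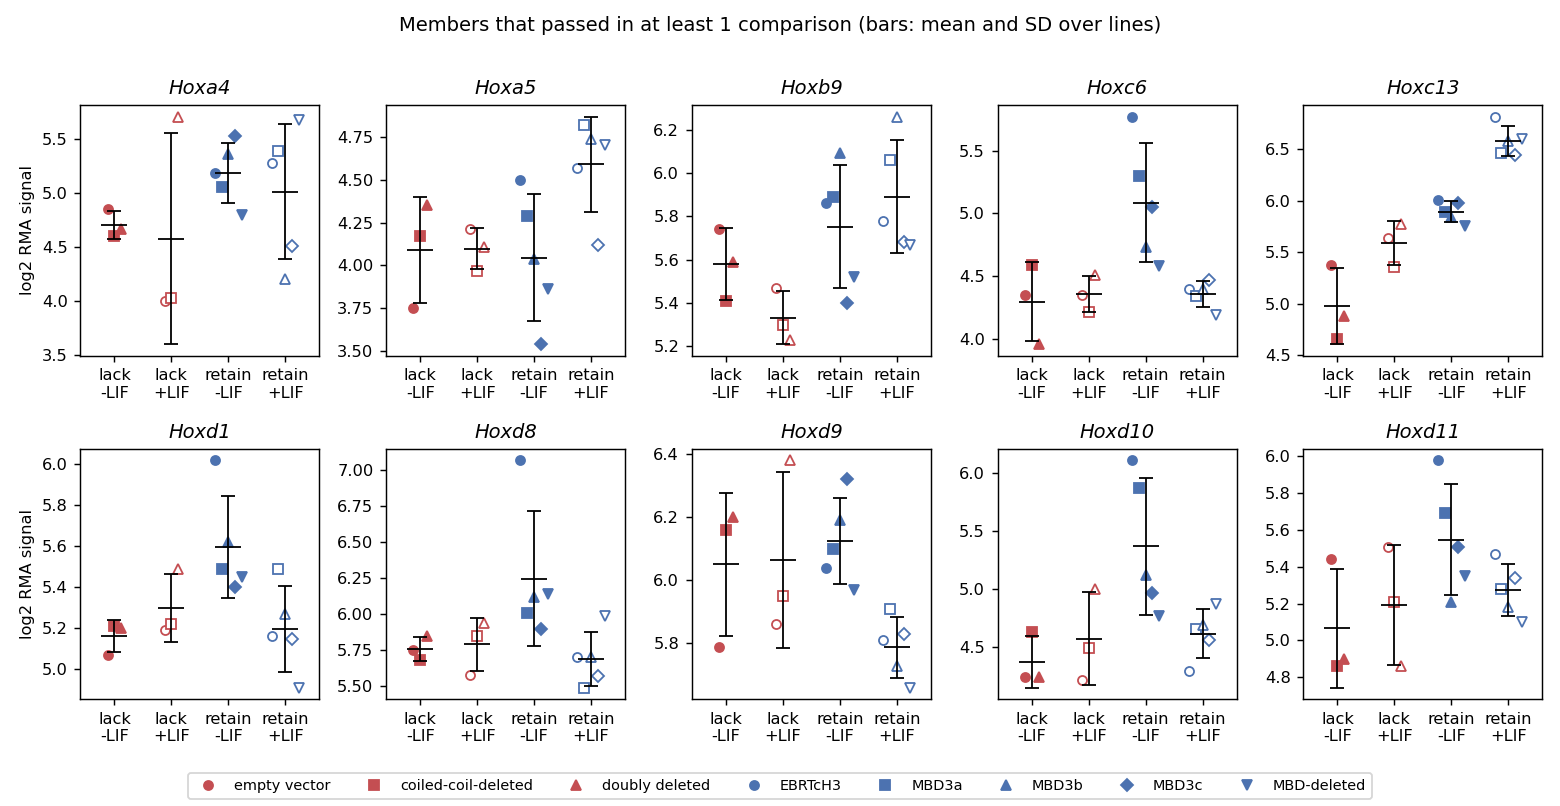
Log2 RMA signal of the 10 Hox genes that passed in at least 1 comparison, 1 point per line, with mean and SD bars, for lacking and retaining lines without (filled) and with LIF (open). Hoxc13 separates the classes in both conditions, and for Hoxc6, Hoxd8 and Hoxd10 the retaining lines without LIF hold the highest points, EBRTcH3 on top.

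In HoxA, Hoxa5, needed for lung and cervicothoracic patterning, fell without LIF in the retaining lines. Without LIF it was 4.50 log2 in EBRTcH3, 3.86 in MBD-deleted, 4.29 in MBD3a, 4.04 in MBD3b and 3.54 in MBD3c, and with LIF 4.57, 4.70, 4.82, 4.74 and 4.12. Each line was lower without LIF, at -0.07 in EBRTcH3 and -0.84 to -0.53 in the others, and the conditions overlapped. The fall was -0.54 ± 0.13 (limma adjusted p = 0.005846), at -0.66 to -0.47 with each line left out, and within run 2 it was -0.84. Signal of Hoxa5 passed the 40th percentile on 7 of 16 arrays, so it is close to the floor. Hoxa4, a gene of the neck vertebrae, was the least steady member: its response was -0.88 to 1.15 over the retaining lines and -1.04 to 0.85 over the lacking lines. Hoxa11, of forearm and uterus, had a response of -0.95 in MBD3a and -1.23 in MBD3b, and of 0.01 to 0.32 in the other 3 retaining lines. Signal of Hoxa11 passed the 40th percentile on only 6 of 16 arrays. The spans of Hoxa4 and Hoxa5 overlap that of Hoxa3. In HoxB no member passed, and Hoxb1, the hindbrain gene at the 3' end of its cluster, came closest at 0.41 ± 0.16 (limma adjusted p = 0.06265). Its response was 0.52 to 0.73 in 4 retaining lines and -0.43 in MBD-deleted. Without MBD-deleted, the only retaining line of run 2, Hoxb1 passed at 0.62 (adjusted p = 0.0008541), and it also passed with arrays centred on the median (0.47), with array weights (0.54) and without the replicate block (adjusted p = 0.04864). Within run 1 Hoxb1 passed (adjusted p = 0.0007016), as did Hoxc9 (0.96, adjusted p = 0.001057), Hoxa13 (0.49, adjusted p = 0.02734) and Hoxa10 (0.41, adjusted p = 0.03038), each higher without LIF. In that fit of 4 retaining lines 10 of 29 tested members passed, against 37.8% of all tested genes, so Hox genes did not pass more often than others.

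The responses were not ordered by paralogue position. In the retaining lines 1 of 6 tested genes of paralogues 1 to 4 rose (Hoxd1), 2 of 10 of paralogues 5 to 8 rose (Hoxc6, Hoxd8) and 1 fell (Hoxa5), and 3 of 13 of paralogues 9 to 13 rose (Hoxd9, Hoxd10, Hoxd11) and 1 fell (Hoxc13). The median change over all measured members was 0.16 in each of these 3 groups of paralogues. Among single positions the median was highest for paralogue 10 (0.75 over Hoxa10, Hoxc10 and Hoxd10) and paralogue 1 (0.40 over Hoxb1 and Hoxd1), and lowest for paralogue 5 (-0.19 over Hoxa5, Hoxb5 and Hoxc5). Members of 1 position often differed: at position 13 Hoxc13 fell by 0.69 and Hoxa13 stood at 0.28.

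In the 3 lacking lines Hoxc13 was the only member that passed after LIF withdrawal, 1 of 29, where 2.93% of all tested genes passed (1.22% lower, 1.71% higher). The median over all 33 members was -0.02 log2. The 7 HoxD genes ranged from -0.20 to 0.06, and the members that rose in retaining lines stood at -0.06 (Hoxc6), -0.14 (Hoxd1), -0.03 (Hoxd8), -0.01 (Hoxd9), -0.20 (Hoxd10) and -0.13 (Hoxd11). Hoxd10 without LIF was 4.63 log2 in coiled-coil-deleted, 4.24 in doubly deleted and 4.24 in the empty vector line, and with LIF 4.49, 5.00 and 4.21. Hoxc6 was 4.59, 3.96 and 4.35 without LIF and 4.22, 4.51 and 4.35 with LIF in the same order of lines. In neither gene did the lacking lines separate by condition.

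Whether the response differed between the classes was tested directly. At the adjusted threshold 0 of 29 members passed (limma, lacking minus retaining response), where 12.1% of all tested genes did (7.9% lower, 4.17% higher), and 9 had an unadjusted p under 0.05. All 7 HoxD genes had a lower response in lacking lines, from -0.95 (Hoxd10, ± 0.38, limma adjusted p = 0.1399) to -0.03. Hoxd1 (-0.54 ± 0.18, limma adjusted p = 0.08161) and Hoxb9 (0.39 ± 0.13, limma adjusted p = 0.07612) were the tested members whose lines did not overlap between classes in response, 2 of 29 against 18.2% of all tested genes. Hoxc6 stood at -0.79 ± 0.26 (limma adjusted p = 0.07796). With array weights 6 members passed (Hoxa5 higher, Hoxa13, Hoxb1, Hoxc9, Hoxd8 and Hoxd11 lower), and 4 passed without the MBD-deleted line, 1 without MBD3a and 1 without the empty vector line. Array weights also raised the share of all tested genes passing after LIF withdrawal. It was 41.1% in retaining and 7.05% in lacking lines, against 35.8% and 2.93% in the main fit. The share for the difference itself is not given for array weights or for the other settings named here. The 6, and the calls in those other settings, are therefore not read as a result about Hox genes. After quantile normalization Hoxb9 passed (0.49, adjusted p = 0.03033), and with arrays centred on the median Hoxc6 passed (-0.84, adjusted p = 0.04328).

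In the line-by-line map the widest gains lay in EBRTcH3. A rise of at least 1 log2 was found for 6 of 33 members in EBRTcH3 (5 of 29 tested members, against 4.67% of all tested genes): Hoxc10 (2.36 log2 above a level near the floor), Hoxd10 (3.53-fold), Hoxc6 and Hoxd8 (2.58-fold each), Hoxc9 (2.55-fold) and Hoxc8 (2.31-fold). In MBD3a it was found for Hoxd10 (2.33-fold) and Hoxc9 (2.13-fold), against 4.69% of tested genes. In MBD3b and MBD3c only Hoxa4 rose that far (2.22-fold and 2.03-fold, against 4.94% and 5.14%), and in MBD-deleted no member did (3.45%). No member rose by 1 log2 in a lacking line, where 1.24% (empty vector), 0.713% (coiled-coil-deleted) and 0.783% (doubly deleted) of tested genes did. A fall of at least 1 log2 was seen for Hoxa11 in MBD3b, where 2.22% of tested genes fell that far, and for Hoxa4 in doubly deleted (0.804%). No member fell that far in coiled-coil-deleted (0.328%), the empty vector line (0.708%), EBRTcH3 (2.54%), MBD-deleted (1.53%), MBD3a (2.0%) or MBD3c (2.25%). These are differences of 1 array from 1 array, with no replicate. The median response over all members was -0.04 in coiled-coil-deleted, -0.14 in doubly deleted and 0.04 in the empty vector line, against 0.41 in EBRTcH3, -0.11 in MBD-deleted, 0.07 in MBD3a, 0.13 in MBD3b and 0.21 in MBD3c. Without EBRTcH3, 5 of 29 tested members passed in the retaining class, where 30.6% of all tested genes did: Hoxc6, Hoxd8, Hoxd9, Hoxa5 and Hoxc13.

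**Figure D4:**
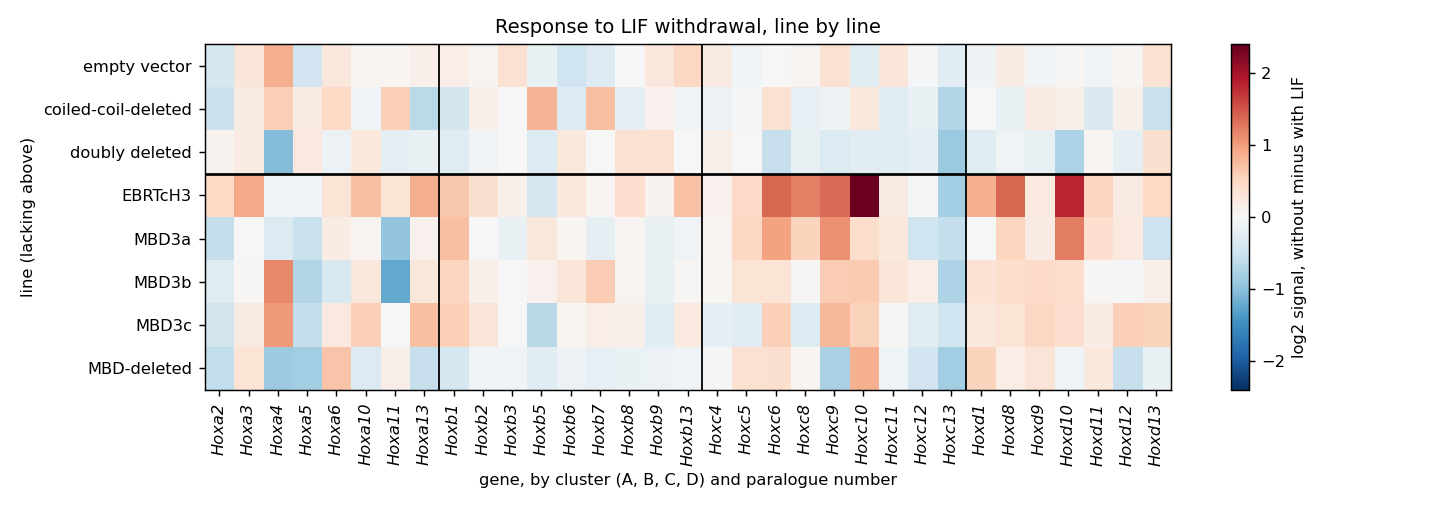
Response to LIF withdrawal (log2 signal without minus with LIF, colour) of each Hox gene (columns) in each line (rows, lacking lines above retaining lines). The darkest cells are Hoxc10 (2.36) and Hoxd10 (1.82) in EBRTcH3, Hoxc13 is blue in all 8 rows, and the lacking rows are pale except for Hoxa4, Hoxb5, Hoxb7, Hoxc13 and Hoxd10.

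Between the classes without LIF, 4 of 29 members were lower in the lacking lines and 0 were higher, where 20.9% of all tested genes passed (12.4% lower, 8.55% higher). They were Hoxc13, whose values are given above, Hoxd10, Hoxd1 and Hoxa4. The lacking and retaining values of Hoxd10 given above did not overlap, with 4.63 the highest lacking and 4.76 the lowest retaining value, and the difference was -0.99 ± 0.29 log2 (1.99-fold, n = 3 and 5 lines, limma adjusted p = 0.03664). Hoxd1 was 5.21 in coiled-coil-deleted, 5.20 in doubly deleted and 5.07 in the empty vector line, below all retaining lines (5.40 to 6.02), with a difference of -0.44 ± 0.14 (limma adjusted p = 0.04493). Hoxa4 was 4.60, 4.67 and 4.85 in the lacking lines, against 5.19 in EBRTcH3, 4.80 in MBD-deleted, 5.06 in MBD3a, 5.36 in MBD3b and 5.53 in MBD3c. The empty vector line lay above MBD-deleted, so the classes overlapped (-0.48 ± 0.15, limma adjusted p = 0.04718). Hoxc6 fell just short, at -0.79 ± 0.25 (limma adjusted p = 0.05202), and its classes overlapped. It passed with a stricter filter, after quantile normalization and with arrays centred on the median, but not with the title run as a covariate. Lines did not overlap for 6 of 29 tested members (Hoxb3, Hoxc9, Hoxc13, Hoxd1, Hoxd8, Hoxd10), against 26.6% of all tested genes.

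Apart from Hoxc13, the calls without LIF were lost when some single lines were left out, while the differences kept their sign. Hoxd1 and Hoxd10 did not pass without MBD3a, MBD3b, empty vector, coiled-coil-deleted or doubly deleted (highest adjusted p = 0.147 and 0.129), with differences of -0.48 to -0.33 for Hoxd1 and -1.15 to -0.81 for Hoxd10 over all lines left out, and, of the fits with 1 line left out, Hoxa4 passed only in that without MBD-deleted (highest adjusted p = 0.1578). None of the 3 passed with the title run as a covariate (-0.84 for Hoxd10, -0.42 for Hoxd1 and -0.31 for Hoxa4). Within the runs the differences were -1.27 in run 1 and -0.33 in run 2 for Hoxd10, -0.56 and -0.24 for Hoxd1, and -0.43 and -0.17 for Hoxa4. The count of members was 1 to 7 with a line left out. It was 1 without MBD3a or coiled-coil-deleted, 2 without MBD3b, the empty vector line or doubly deleted, and 7 without MBD-deleted. With no filter Hoxc10 passed as well: its lacking values of 2.55 to 2.75 lay below its retaining values of 3.50 to 5.21 (-1.46 ± 0.34 log2, limma adjusted p = 0.01634). The lacking values lay near the floor of the array, so no fold is given.

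With LIF, before differentiation, the classes differed in 2 of 29 members, where 14.1% of all tested genes passed (6.48% lower, 7.65% higher). Both were lower in the lacking lines, Hoxc13 and Hoxb9, a gene of the rib-bearing vertebrae. Hoxb9 with LIF was 5.30 log2 in coiled-coil-deleted, 5.23 in doubly deleted and 5.47 in the empty vector line, against 5.78 in EBRTcH3, 5.67 in MBD-deleted, 6.06 in MBD3a, 6.26 in MBD3b and 5.68 in MBD3c. The classes did not overlap for either gene, 2 of 29 against 20.2% of all tested genes. The difference of Hoxb9 was -0.56 ± 0.15 (1.47-fold, n = 3 and 5 lines, limma adjusted p = 0.0283). It did not pass without MBD3a, coiled-coil-deleted or doubly deleted (highest adjusted p = 0.1124). Within the runs it was -0.47 in run 1 and -0.41 in run 2. Without LIF the classes overlapped in Hoxb9, at 5.41, 5.59 and 5.74 in the lacking lines, against 5.40 to 6.09 in the retaining lines. None of the HoxD genes passed with LIF, and their differences ran from -0.08 to 0.28.

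Several genes that act upstream of the Hox clusters in the embryo changed by more than any tested Hox gene. In the retaining lines without LIF, 5 of 11 measured Cdx and posterior-axis genes rose and 0 fell. In this comparison 21.3% of all tested genes rose and 14.5% fell, the shares against which this and the following lists are to be read. Cdx2, which binds and activates Hox clusters, rose by 2.71 log2 (limma adjusted p = 3.21e-06), the Wnt ligands Wnt3 by 1.62 and Wnt5a by 1.43, and the growth factor gene Fgf8 by 0.91. Of 17 retinoic acid pathway genes 7 rose and 1 fell. The retinol dehydrogenase gene Rdh10 rose by 1.76, the retinaldehyde reductase gene Dhrs3 by 1.24, Cyp26a1, whose enzyme degrades retinoic acid, by 1.03 and the receptor gene Rxrg by 0.84. In the lacking lines 0 of the 11 and 0 of the 17 passed, where 2.93% of all tested genes did, so a count of 0 is near that share. The difference of the response passed for Cdx2 (-2.40) and Wnt3 (-1.57), and for Rdh10 (-1.53), Dhrs3 (-1.32) and Rxra (-0.81), with lacking lines below retaining lines in each (limma).

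Among the TALE partners of Hox proteins, 3 of 8 rose in the retaining lines (Pbx2 0.63, Meis3 0.63, Meis1 0.39) and 2 fell (Pknox1 -0.54, Pknox2 -0.23), and in the lacking lines 0 passed. With LIF, Meis2 was lower in the lacking class (-1.03, limma adjusted p = 0.00277). Without LIF 4 of the 8 were lower and 1 was higher, against 12.4% and 8.55% of all tested genes. Of 22 Polycomb genes, which hold Hox clusters silent, 9 fell and 3 rose without LIF in the retaining lines, where 14.5% of all tested genes fell and 21.3% rose: Bmi1 fell by 1.16, Eed by 1.02 and Phf19 by 1.02, and Phc2 rose by 0.80. In the lacking lines Phf19 rose by 0.78 and Eed fell by 0.60, and 0 others passed. Phf19 without LIF was 2.10 log2 higher in the lacking class (limma adjusted p = 1.36e-05). Of 10 Trithorax and H3K27 demethylase genes, 5 fell (Kmt2c by 1.53, Rbbp5 by 0.86) and 2 rose (Men1 by 0.68, Kdm6b by 0.58) in the retaining lines, and 0 passed in the lacking lines.

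Of 13 measured ParaHox and flanking genes, 5 fell and 0 rose in the retaining lines without LIF (14.5% and 21.3% of all tested genes). Skap2 and Hibadh, which lie beside HoxA, fell by 0.95 and 0.70, and Lnpk, next to HoxD, fell by 0.44 while HoxD genes rose. Of 16 listed noncoding RNAs of the clusters 6 were measured and 4 tested, and Mir196a-1, a microRNA of the HoxB cluster, fell by 0.50.

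Lists of markers for other cell types were read beside these comparisons. All 10 ESC markers lay above the 40th percentile in every line in both conditions, with a mean log2 signal without LIF of 11.14 to 11.26 in lacking lines and 10.54 to 11.17 in retaining lines. With LIF the means were 11.37 to 11.55 and 11.4 to 11.6. After LIF withdrawal 7 of the 10 fell and 1 rose in retaining lines (median -0.74 log2). In lacking lines 1 fell and 0 rose (median -0.26). The 7 measured trophoblast markers, Cdx2 among them, averaged 7.23 to 7.39 in lacking lines and 7.22 to 8.52 in retaining lines without LIF, against 6.59 to 6.89 and 6.16 to 6.55 with LIF. Of these, 5 rose and 1 fell in retaining lines, and 1 rose and 0 fell in lacking lines. The 7 lateral mesoderm and heart markers averaged 5.99 to 6.25 in lacking lines and 6.42 to 7.12 in retaining lines without LIF. With LIF they averaged 5.85 to 6.12 and 5.95 to 6.12. In retaining lines 3 of them rose and 1 fell, and 0 passed in lacking lines. Hand1 is in both this list and the trophoblast list, so the lists are not independent. The largest rise in retaining lines was 3.45 in each list, where the median of the mesoderm and heart list was 0.29. The 7 posterior and paraxial mesoderm markers, whose tissue uses Hox genes widely, averaged 5.84 to 5.99 in lacking lines and 5.84 to 6.11 in retaining lines without LIF. After LIF withdrawal 2 of them rose and 0 fell in retaining lines, and 0 passed in lacking lines. Of the fibroblast feeder markers, 4 of 9 tested rose and 0 fell in retaining lines without LIF (Cd44 by 1.95, Dcn by 1.05, Col1a1 by 0.77 and Col3a1 by 0.30), and 0 passed in lacking lines. The response of 4 of the 9 tested feeder markers was lower in the lacking class, against 7.9% of all tested genes. The 11 measured feeder markers averaged 5.29 in each lacking line and 5.35 to 5.74 in retaining lines without LIF, against 5.16 to 5.46 and 5.02 to 5.24 with LIF. Of 7 tested endoderm markers 3 rose and 1 fell in the retaining lines, and of 7 neural markers 1 rose and 3 fell, with 0 of either list passing in the lacking lines. The endoderm markers averaged 5.45 to 5.52 in lacking lines and 5.53 to 5.89 in retaining lines without LIF, and the neural markers 6.71 to 6.78 and 6.65 to 6.98. The part of these cell types in the Hox differences was not tested.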

How the data were processed

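RNA of 8 lines in 2 conditions was measured on 16 Affymetrix arrays. The deposited values are log2 probe set signals; the authors used RMA (affy), per the submitters' processing notes, with no version stated. Of 65770 probe sets, 27 without a value were left out. The 30439 with a single symbol were used, with 827 symbols updated from a GRCm38.p6 table, which gave 30102 genes. A gene was tested if 3 or more arrays showed it above their own 40th percentile (22872 genes).

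Tests used limma 3.58.1 (R 4.3.3), adjusted by Benjamini-Hochberg over all tested genes. Responses came from all 16 arrays with the line as a block, a pairing that the labels give, and class differences from the 8 arrays of a condition. In the response fit both classes share an estimate of the spread, because the lacking lines alone are too few to give one. The fits were checked on simulated data. Values are given line by line for the 10 members that passed in at least 1 comparison, and up to 4 genes of each further list are named; Hoxc10 and the other members or list genes named singly were picked after their values were seen. Members, lists and tests were chosen with earlier results of these data known. Alternatives changed the filter, probe set choice, scaling, prior, array weights, block, title run and each line in turn. The number of arrays limits the precision.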

Additional observations from a re-analysis of the deposited data

Results flagged for a closer look

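In 99 checks of 1 line against the other 4 retaining lines (33 Hox genes, each for the level without LIF, the level with LIF and the response), 7 lines stood apart by more than Dixon's critical value of 0.71 for the gap over the range. Chance alone gives about 5% of such checks. EBRTcH3 was the line in 4 of them: Hoxd8 (7.07 log2) and Hoxc8 (6.66 log2) without LIF, and the responses of Hoxc10 (2.36) and Hoxa2 (0.48). The response of Hoxb1 in MBD-deleted (-0.43) and that of Hoxc5 in MBD3c (-0.26) stood below the other lines. Hoxc10 with LIF was highest in MBD3a (3.95 log2). Hoxa2 and Hoxc10 did not meet the filter for testing.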

How the results depend on the processing

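Counts of Hox genes that passed varied with the lines and with the fit. For LIF withdrawal in retaining lines (8, where 35.8% of all tested genes passed) the count was 5 with the title run as a covariate (31.9%). With 1 line left out it was 5 to 11 (29.1% to 36.7% of all tested genes). In lacking lines (1) it was 0 to 1 with 1 line left out. For the difference of the response (0) it was 1 after quantile normalization, 1 with arrays centred on the median, 6 with array weights and 0 to 4 with 1 line left out. For lacking minus retaining lines with LIF (2) it was 1 to 3 with 1 line left out. Without LIF (4) it was 7 with arrays centred on the median, 7 with array weights, 1 with the title run as a covariate and 1 to 7 with 1 line left out. Counts within a run are not given here, because a class can hold 1 line there. The cause of these shifts was not tested. The 1 reversal was Hoxd10 in retaining lines within run 2 (-0.11). Scaling moved the split in retaining lines: 6 higher and 2 lower as deposited, 3 and 4 after quantile normalization, and 9 and 2 with centred arrays. Without the replicate block the counts of the 3 response comparisons were 8, 1 and 0, and with the line as a random replicate block the class differences gave 2 with LIF and 4 without. The block therefore moved no count, though 1 member changed in each of 2 comparisons. Signal near the array floor limits Hoxa2, Hoxa3, Hoxb13, Hoxc10, Hoxa5 and Hoxa11. Hoxa4, Hoxc6 and Hoxd10 passed the 40th percentile on 13 of 16 arrays each, so low signal may limit their folds too.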
